A study of Mus musculus with 9 samples.

Results

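Weight loss after 12 weeks of high-fat diet (HFD) was described in epididymal adipose tissue (AT) by setting the library HC against the library CC. HC came from C57BL/6J mice aged 26 weeks that had eaten HFD for 12 weeks and then chow for 8 weeks. CC came from C57BL/6J mice of the same age, 26 weeks, that had never eaten HFD. By the study's methods, the C57BL/6J mice were males, with no transgene named for them. By the same methods, CC ate a low-fat control diet while HC ate HFD, and both ate the same standard chow afterwards. Nuclei of snap-frozen tissue were sequenced by single-nucleus RNA sequencing (snRNA-seq), which counts unique molecular identifiers (UMIs), 1 for each RNA molecule captured. Each library pooled 5 mice, so a group is 1 sample and no spread between animals can be had. Barcodes entered the comparison if they held between 500 and 3000 genes and no more than 40000 UMIs, which left 5385 in HC and 4144 in CC, together 9529 of 76356 such barcodes in all 9 libraries of the series. The comparison addresses what remains different in AT once formerly obese mice have returned to chow.

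No test between conditions is possible with 1 library on each side. Values are therefore given with exact 95% intervals that cover counting error only, and a gene was called when its level in CPM, the UMIs of the gene scaled to a common total of UMIs in each class and library, differed by 2-fold or more. 4 other groups of the same strain and tissue are used for reference, each also 1 library of 5 pooled mice. C is 18 weeks old and ate the low-fat diet, CCC is 39 weeks old and ate chow, H is 18 weeks old and ate HFD for 12 weeks, and HHC is 39 weeks old and ate HFD for 25 weeks and then chow for 8 weeks. C, CC and CCC are called the chow libraries here. Counts of genes higher or lower in H than in C take a difference of any size unless 2-fold is stated. The share of all compared genes that differed that way at any size was not taken, so those counts have no background. The descriptions of HC, CC, CCC and HHC carry 1 set code and those of C and H another. Values of H or C set beside HC differ in that as well.

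Adipocytes store triglyceride and release fatty acids, and adipocyte progenitor cells around them make matrix and new adipocytes. In obesity, macrophages gather in AT, among them lipid-associated macrophages (LAMs), which take up lipid, digest it in lysosomes and carry Trem2, Gpnmb and Cd9. Perivascular macrophages (PVMs) are a resident population that carries scavenger receptors such as Cd163 and Lyve1, and non-perivascular macrophages (NPVMs) carry more of the genes of antigen presentation. The epididymal fat pad lies beside the epididymis, a duct lined by epithelium and wrapped in smooth muscle.

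After called doublets were removed, HC had 5187 nuclei and CC 4013, with median depths of 3041 and 3050 UMIs and of 1634 and 1715 genes per nucleus. Low-count clusters of mixed identity, which were set apart before naming, held 71 nuclei or 1.37% of HC and 387 nuclei or 9.64% of CC. HC and CC shared 24 cell barcodes, which is 0.376% of the barcodes of HC and 0.464% of those of CC. Clusters of the remaining nuclei were named from marker genes and are called "like" a cell type for that reason. The named classes carried their own markers in both libraries, at levels that were near even in some classes and not in others. Adipocyte markers summed to 31698 CPM in adipocyte-like nuclei of HC and 28576 CPM in those of CC, and mesothelial markers to 4354 and 4623 CPM in mesothelial-like nuclei. Macrophage markers summed to 10896 and 17961 CPM in macrophage-like nuclei, epithelial markers to 10254 and 5349 CPM in epithelial-like nuclei, and smooth muscle or pericyte markers to 12788 and 5545 CPM in nuclei of that class. Markers of other classes were detected in every class. Those of adipocytes in progenitor-like nuclei summed to 3393 CPM in HC and 7788 CPM in CC, and in macrophage-like nuclei to 3159 and 7534 CPM.

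HC held more macrophage-like and smooth muscle or pericyte-like nuclei than CC, and fewer adipocyte-like and epithelial-like nuclei. Macrophage-like nuclei were 22.8% of clustered nuclei in HC and 12.7% in CC, a difference of 10.0 percentage points (95% counting interval 8.45 to 11.6). The chow libraries C and CCC stood at 14.6% and 9.20%, so HC lay above all 3 of them, and H stood at 53.0%. Adipocyte-like nuclei were 15.8% in HC and 23.1% in CC, a difference of -7.27 points (-8.98 to -5.58). C and CCC had 20.6% and 23.7% and H had 1.81%, which places HC below the chow libraries and above H. Shares sum to a whole within a library, and more nuclei of one class and fewer of another cannot be told apart.

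Smooth muscle or pericyte-like nuclei numbered 308 in HC, 6.02%, and 34 in CC, 0.938%, a difference of 5.08 points (4.36 to 5.82). C had 2.87%, CCC 1.02% and H 0.547%, so HC was the highest of these libraries. The class held more than 1 population. In the finer first clustering, a cluster led by Rbfox3, Ryr3 and Actg2 had 225 nuclei of HC, 1 of CC, 187 of C and 0 of CCC, and a cluster led by Dgkb and Col19a1 had 54 nuclei of HC and 23 of CC. Most of the difference thus lay in the former cluster. B cell-like nuclei were 2.01% in HC and 0.745% in CC, a difference of 1.27 points (0.783 to 1.75), while CCC had 1.93%. Progenitor-like nuclei were 26.3% in HC and 23.5% in CC (2.83 points, 0.990 to 4.66), and endothelial-like nuclei 7.21% and 5.21%, a difference whose counting interval lay above 0. The interval included 0 for endothelial-like nuclei with no upper limit on genes (0.890 points, -0.274 to 2.04) and for progenitor-like nuclei without library correction (1.51 points, -0.331 to 3.34). C had more endothelial-like nuclei, 10.6%, than HC. Mesothelial-like nuclei, from the lining of the fat pad, were 6.29% in HC and 8.88% in CC (-2.59 points, -3.74 to -1.46), and CCC had 6.42%. For T or NK cell-like, lymphatic endothelial-like, mast cell-like and dendritic cell-like nuclei the interval of the difference included 0. Markers summed over the whole library, without clusters, nevertheless differed for both T or NK cells and dendritic cells. Those of T or NK cells stood at 173 CPM in HC and 86.5 CPM in CC (log2 1.00), within the 82.1 to 178 CPM of the chow libraries. Those of dendritic cells stood at 555 and 280.0 CPM (log2 0.99), above the 280.0 to 346 CPM of the chow libraries. Many of these UMIs lay in macrophage-like nuclei. Dendritic cell markers had 4157 UMIs there in HC and 566 in CC, against 491 and 151 in dendritic cell-like nuclei. T or NK cell markers had 800 and 32 UMIs there, against 1082 and 576 in T or NK cell-like nuclei. Of the 800 and 32 UMIs, Il7r made 653 and 3.

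**Figure D1:**
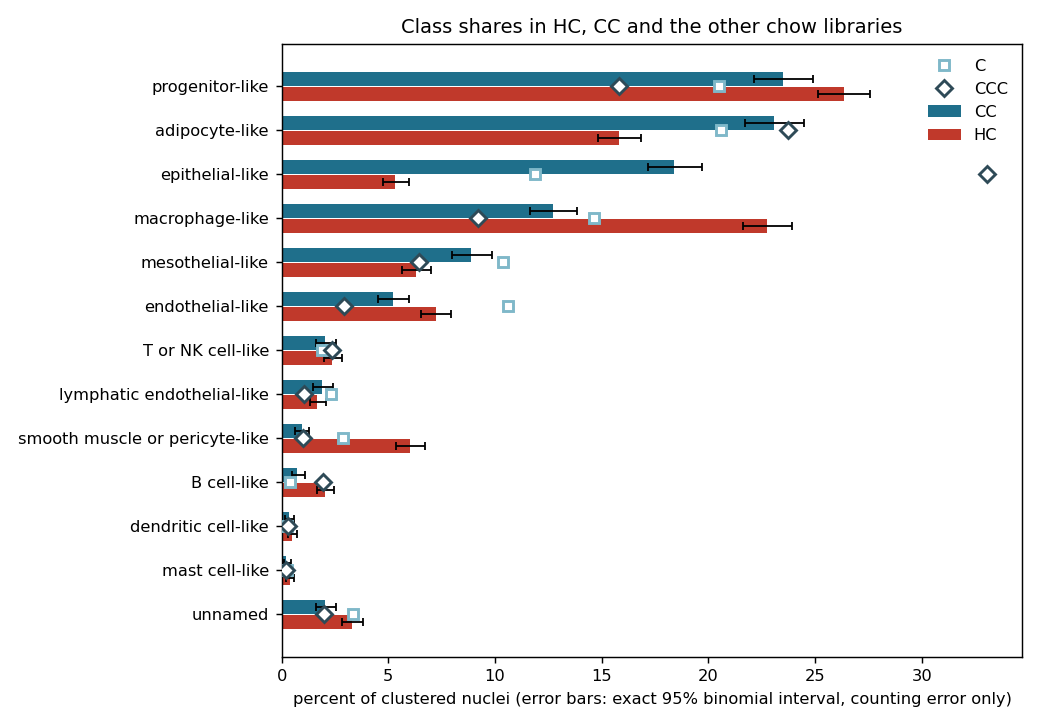
Share of clustered nuclei in each class (x axis, percent) for CC and HC (bars with exact 95% binomial intervals) and for the chow libraries C (squares) and CCC (diamonds). HC lies above the other 3 for macrophage-like nuclei at 22.8% and for smooth muscle or pericyte-like nuclei at 6.02%, and below them for adipocyte-like nuclei at 15.8% and epithelial-like nuclei at 5.34%.

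Marker genes were also summed over all kept nuclei of a library, a measure that does not depend on clusters. LAM markers summed to 3264 CPM in HC and 1440 CPM in CC, a log2 ratio of 1.18 (1.16 to 1.20), and no chow library was above 1440 CPM. PVM markers were lower in HC, at 744 CPM in HC and 1271 CPM in CC (log2 -0.77), below all 3 chow libraries. NPVM markers stood at 234 and 284 CPM (log2 -0.28), within the 216 to 470 CPM of the chow libraries. Adipocyte markers stood at 9659 and 14906 CPM (log2 -0.63) and macrophage markers at 3877 and 3009 CPM (log2 0.37). The highest chow library had 3889 CPM of macrophage markers, so that sum did not set HC apart from chow as the LAM markers did. The list for proliferating macrophages holds cell cycle genes such as Top2a and Knl1. Summed over nuclei of all classes, it is not a level of macrophages alone. It was low in both, at 101 CPM in HC and 39.4 CPM in CC (log2 1.36). HC lay above the 39.4 to 56.4 CPM of the chow libraries.

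Within macrophage-like nuclei, genes of LAMs were higher in HC and receptors of PVMs were lower. Of 9117 genes compared, 910 (9.98%) were higher in HC by 2-fold or more and 965 (10.6%) were lower. With TMM scaling, which shifted every log2 ratio of the class by 0.12, 1073 were higher and 811 lower, so which direction held more genes depended on the scaling. Without that scaling, 816 of the 910 higher genes lay above all 3 chow libraries and 656 of the 965 lower genes below all 3. As a scale for such counts, CCC against CC, which are both chow, gave 165 higher (2.55%) and 460 lower genes (7.1%) of 6475 compared. The macrophage-like nuclei of HC also carried more markers of dendritic cells, 1125 against 415 CPM, and of T or NK cells, 217 against 23.5 CPM, of which Il7r made 177 CPM in HC, and fewer of adipocytes, as given above. The part of these in the gene differences was not tested.

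Of the 19 genes of the LAM programme that could be compared, 13 were higher in HC by 2-fold or more and none was lower, with a median log2 difference of 2.89 against -0.01 over all compared genes. All 13 lay above the 3 chow libraries, and all 13 were also higher in H than in C. Gpnmb, a membrane glycoprotein of lysosome-rich macrophages (chr6:49036546-49070929, mm10), stood at 2425 CPM in HC and 26.4 CPM in CC, with 55.5 CPM in C, 111 CPM in CCC and 2688 CPM in H. HC was thus close to the mice still on HFD and apart from the 3 chow libraries. Mmp12, the macrophage elastase (chr9:7344381-7369499), stood at 1610 CPM in HC, 14.7 CPM in CC, 47.3 CPM in C, 69.8 CPM in CCC and 4038 CPM in H. Its log2 ratio of HC over CC was 6.78 (6.15 to 7.49), and HC lay between chow and H. Lgals3, which encodes galectin-3, had 1354 and 53.5 CPM (log2 4.66), and Ctsk, the cysteine protease cathepsin K, had 147 and 5.87 CPM (log2 4.64). Cd9 had 202 and 25.7 CPM and Lipa, lysosomal acid lipase, 404 and 54.3 CPM. Genes of lipid handling were mixed. Abcg1, a cholesterol exporter, was higher, at 265 against 40.3 CPM (log2 2.72), as was Plin2, a lipid droplet coat protein, at 482 against 125 CPM. Cd36 (log2 0.79), Abca1 (0.53), Lpl (0.34) and Fabp5 (0.51) stayed within 2-fold, and Apoe was on the lower side, at 188 against 334 CPM (log2 -0.82).

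Lysosomal genes followed in the same nuclei. Of 22 compared, 11 were higher by 2-fold or more, 1 was lower, and the median log2 difference was 1.05. The 11 were the cathepsin genes Ctsb, Ctsd, Ctss and Ctsz, the hydrolase genes Lipa and Gusb, the cholesterol transporter gene Npc1, the proton pump genes Atp6v1a, Atp6v1b2 and Atp6v0a1, and Tfeb, a transcription factor of lysosomal genes. Each of the 11 lay above all chow libraries. Ctss stood at 482 CPM in HC and 101 CPM in CC, with C at 102 and CCC at 180 CPM. Atp6v0a1 had 1464 and 439 CPM (log2 1.74) and Tfeb 326 and 136 CPM (log2 1.26). Ctsc, which activates serine proteases, was the 1 lower member, at 197 against 635 CPM (log2 -1.69).

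Receptors of perivascular macrophages were lower in HC: 10 of 14 by 2-fold or more, none higher, with a median log2 difference of -2.01, and all 10 below the chow libraries. Cd163, the haemoglobin scavenger receptor, stood at 93.4 CPM in HC and 596 CPM in CC, with 986 CPM in C, 684 CPM in CCC and 126 CPM in H. Timd4, which binds phosphatidylserine on dying cells, had 19.2 CPM in HC, 164 CPM in CC and 116 to 173 CPM in the other chow libraries. H had 8.97 CPM of Timd4, and for both genes HC and H lay below every chow library. F13a1, the coagulation factor XIII A chain, had 1066 and 4791 CPM (log2 -2.17), and Mrc1, the mannose receptor, 934 and 2143 CPM (log2 -1.20). Stab1 (log2 -0.40), Folr2 (-0.83) and Colec12 (-0.91) were lower within 2-fold, and Il10ra was on the higher side (0.63). Of 9 genes of MHC class II presentation, 2 were lower, H2-Eb1 (43.6 against 89.5 CPM) and the costimulator gene Cd86 (57.4 against 280 CPM), and the median was -0.65.

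Inflammatory genes were few and thinly counted. Of 7 genes of inflammatory signalling compared, 3 were higher, with a list median of 0.37. Tnf had 17.1 CPM in HC and 1 UMI, or 0.734 CPM, in CC, a log2 ratio of 4.54 with a wide interval (2.01 to 9.87), and CCC had 11.6 CPM. Ptgs2, cyclooxygenase-2, had 30.9 and 2.20 CPM (log2 3.81, 2.23 to 6.11), but C had 52.3 CPM, above HC. Nfkb1 (0.37), Tlr4 (-0.40) and Nfkbiz (-0.28) stayed within 2-fold. Of 5 chemokine genes and receptors compared, Ccr1 and Ccr2 were lower, at 7.58 against 19.8 CPM and 8.12 against 20.5 CPM. Of 3 cell cycle genes with enough UMIs, Diaph3 was higher (39.0 against 13.9 CPM), and Mcm6 and Pola1 were within 2-fold. A cluster led by Neil3, Top2a and Knl1, left unnamed and so outside the class, held 49 nuclei of HC and 10 of CC. Another unnamed cluster, with Ccr2 among its leading genes, held 120 and 64.

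**Figure D2:**
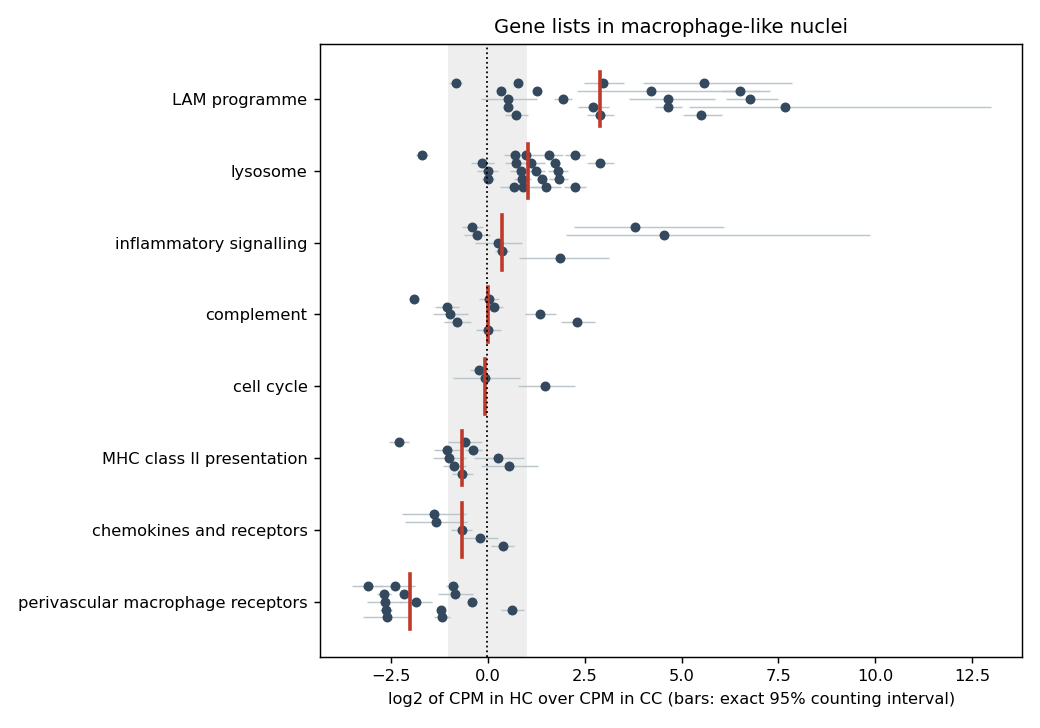
Each point is a gene of a list in macrophage-like nuclei, with its log2 ratio of CPM in HC over CC on the x axis and exact 95% counting intervals as bars. The red lines are list medians, the dotted line is the median of all compared genes and the grey band marks differences under 2-fold. The LAM programme (median 2.89) and lysosome genes (1.05) lie mostly to the right, and PVM receptors (-2.01) to the left.

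The genes ranked first in macrophage-like nuclei by the naming rule, which took the largest differences after counting error, were in the higher direction Mmp12, Gpnmb, Tmem267, Fat3, Itgax, Atp6v0d2, Rgs1, Il7r, Adam8 and Ksr2. All 10 lay above the chow libraries and were higher in H than in C. Itgax, the integrin of CD11c, had 550 UMIs in HC and 1 in CC (log2 7.67, 5.18 to 12.97), and 10.5 CPM in C and 19.4 CPM in CCC against 149 CPM in HC. Il7r, the interleukin-7 receptor, had 653 and 3 UMIs (log2 6.33, 4.77 to 8.61), with 177 CPM in HC and 322 CPM in H. Rgs1, a regulator of G-protein signalling, had 599 and 2 UMIs (log2 6.79, 4.93 to 9.84). Fat3, an atypical cadherin, had 2971 UMIs in HC and 15 in CC (log2 6.19), with 804 CPM in HC and 1081 CPM in H. Tmem267, a transmembrane protein gene, did not follow H in size: it had 816 CPM in HC, against 8.80 CPM in CC, 54.5 CPM in H and 73.3 CPM in HHC. Ksr2, a scaffold of MAP kinase signalling, likewise had 270 CPM in HC, above 61.8 CPM in H and 180 CPM in HHC, and the other nuclei of HC had 253 CPM.

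In the lower direction the rule gave Ms4a8a, Retnla, Cebpb, Cd209d, Gfra2, Timd4, Mctp2, Cd163, Lifr and BC035044, all below the chow libraries, and 9 of the 10 were lower in H than in C. Retnla, a secreted product of alternatively activated macrophages, had 17.9 CPM in HC and 169 to 180 CPM in the chow libraries, with 49.6 CPM in H and 16.6 CPM in HHC. Gfra2, a receptor of the GDNF family ligands, had 42.5 CPM in HC, 332 CPM in CC and 25.9 CPM in H. Lifr, the receptor of leukaemia inhibitory factor, had 147 and 910 CPM (log2 -2.63, -2.77 to -2.48). Cebpb, a transcription factor of myeloid cells and adipocytes, was the 1 of the 10 that H did not share, with 5.68 CPM in HC, 69.7 CPM in CC and 157 CPM in H.

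**Figure D3:**
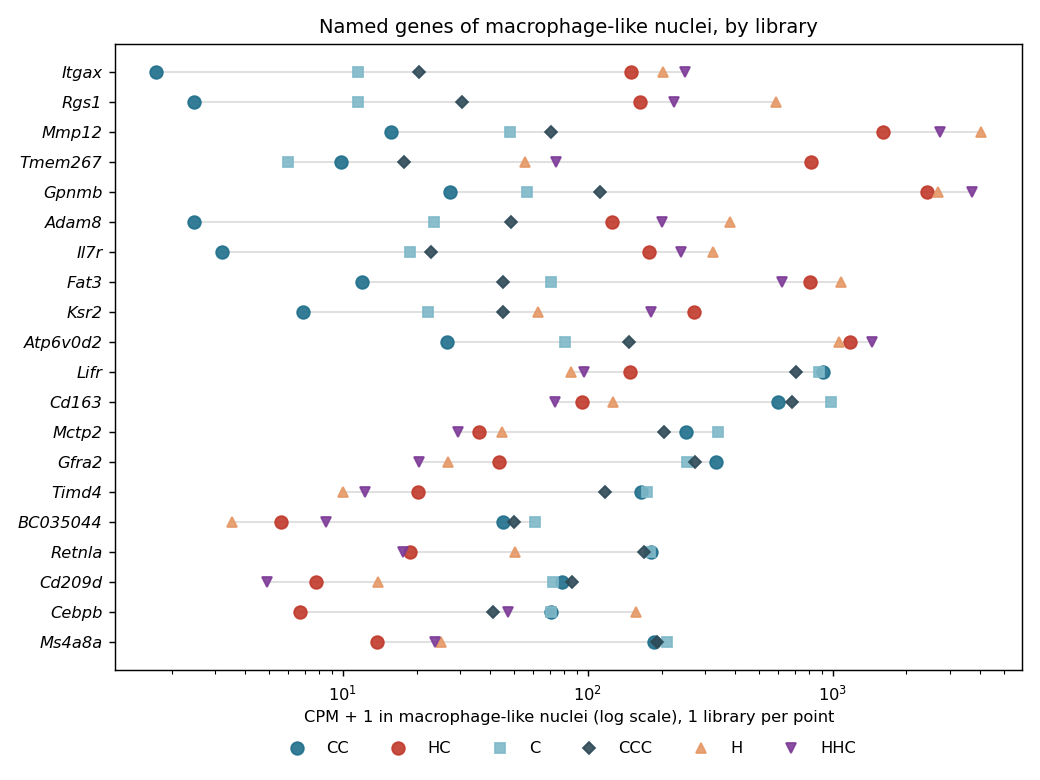
Level (x axis, CPM plus 1, log scale) of the 20 named genes of macrophage-like nuclei in CC, HC, C, CCC, H and HHC, 1 point per library. For the 10 upper genes HC lies to the right of every chow library, and for the 10 lower genes to the left of every chow library; HC reaches 2425 CPM for Gpnmb and 5.68 CPM for Cebpb.

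The macrophage-like nuclei were also clustered alone and given kinds from markers. LAM-like nuclei were 380 of 1164, or 32.6% (30.0 to 35.4), in HC and 4 of 461, or 0.868% (0.237 to 2.21), in CC, with 4.34% in C, 3.50% in CCC, 40.7% in H and 33.5% in HHC. PVM-like nuclei were 16.4% of macrophage-like nuclei in HC and 38.4% in CC, and NPVM-like nuclei 24.7% and 25.8%. Unnamed kinds held another 26.3% and 34.9%. The largest unnamed cluster, led by Hbb-bs, Slit3 and Tshz2, held 17.8% in HC and 31.0% in CC. No marker of a kind reached the limits for naming in it. These nuclei are part of the class in the gene comparisons, and their part in the differences was not tested. As shares of all clustered nuclei, PVM-like nuclei were 3.73% in HC and 4.88% in CC, and NPVM-like nuclei 5.61% and 3.28%. NPVM markers summed over the whole library were on the lower side in HC, as given above. With HC and CC clustered alone NPVM-like nuclei were 46.6% and 2.30%, so the near-even share of that kind among macrophage-like nuclei rests on the joint clustering. The kinds were clustered on the genes described above, so their sizes are a description only. Without correction for library differences the kinds could not be told apart, since 99.5% of macrophage-like nuclei of HC and 99.2% of those of CC were in unnamed kinds and 2 nuclei of HC were LAM-like (a difference of 0.160 points in place of 31.8). At resolution 1 the difference for LAM-like nuclei was 24.9 points.

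Levels were also compared outside the LAM-like clusters. When the PVM-like and NPVM-like nuclei alone were summed, 382 (5.88%) of the 6494 genes with enough UMIs in that sum were higher and 395 (6.08%) lower by 2-fold or more. Over the 9117 genes of the whole class, with no minimum in the sum, 747 (8.19%) were higher and 717 (7.86%) lower. The LAM programme then had a median log2 difference of 2.07 and PVM receptors one of -1.06, and 10 of the 13 LAM genes and 7 of the 10 receptors were still past 2-fold. In PVM-like nuclei Gpnmb had 401 CPM in HC and 9.18 CPM in CC, and Ctsd 288 and 74.9 CPM (log2 1.94). The nuclei of HC outside the macrophage-like class had 489 CPM of Gpnmb and 306 CPM of Ctsd, as much or more, so these levels in PVM-like nuclei did not exceed the rest of the library. In NPVM-like nuclei Gpnmb had 1027 and 42.1 CPM, and Atp6v0d2, a subunit of the vacuolar proton pump, 1201 and 51.8 CPM. Both were above the other nuclei of HC, which had 489 and 90.9 CPM. These kinds were shared by the libraries only under library correction. With HC and CC clustered alone, 1 PVM-like cluster held 18 nuclei of HC and 471 of CC, and another 216 and 3. The receptors of PVM-like nuclei, as named in the joint clustering, differed in both directions. Stab1 was on the higher side in HC, at 953 against 566 CPM (log2 0.75, 0.56 to 0.95). Mrc1 had 2600 CPM in HC and 2741 CPM in CC (log2 -0.08), and F13a1 4760 and 6592 CPM (log2 -0.47), while Cd163 had 362 and 768 CPM (log2 -1.09) and Timd4 59.1 and 219 CPM (log2 -1.89). MHC class II genes had a median of -0.11 in the sum of both kinds, but single members and kinds differed. In NPVM-like nuclei H2-Aa had 140 and 149 CPM (log2 -0.09), Cd74, the invariant chain, 150 and 256 CPM (-0.77) and Cd86 58.5 and 343 CPM (-2.55). In PVM-like nuclei H2-Aa had 37.6 and 74.9 CPM (-0.99), and H2-Ab1 had 8 UMIs in HC and 36 in CC (-1.94, -3.26 to -0.81).

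Adipocyte-like nuclei differed in fewer genes. Of 9836 compared, 291 (2.96%) were higher in HC by 2-fold or more and 493 (5.01%) were lower, and 221 and 388 of these lay beyond all 3 chow libraries. With at least 200 UMIs 112 were higher and 98 lower, so which direction held more genes depended on that minimum. CCC against CC gave 808 higher (7.74%) and 92 lower genes (0.882%) of 10436 compared, so the count of higher genes between 2 chow libraries exceeded that between HC and CC. However, 311 of the 956 adipocyte-like nuclei of CCC formed a cluster found in no other library. The median depth of that cluster was 5518 UMIs, and that of all adipocyte-like nuclei of CCC was 2789 UMIs. The part of that cluster and of depth in the count of higher genes was not tested. The median depth of adipocyte-like nuclei was 3858 UMIs in HC and 4869 in CC. With HC and CC clustered alone the class split by library, into a cluster of 798 nuclei of HC and 1 of CC and another of 7 and 737.

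Genes of de novo fatty acid synthesis, the pathway that builds fatty acids from glucose, held the most calls of any adipocyte list. Of 16 compared, 5 were higher in HC and none lower, and the median was 0.36 against -0.08 over all compared genes. Acly, ATP citrate lyase, which supplies the acetyl-CoA, had 269 CPM in HC, 95.1 CPM in CC, 35.3 CPM in C and 75.8 CPM in CCC. Acaca, acetyl-CoA carboxylase, the committed step, had 2995 CPM in HC, 1101 CPM in CC, 706 CPM in CCC and 711 CPM in H, but 3793 CPM in C. HC was thus above all chow libraries for Acly and below C for Acaca. Elovl6, which elongates palmitate, had 116 and 34.5 CPM (log2 1.75), Me1, malic enzyme, 807 and 308 CPM (1.39), and Acss2, acetyl-CoA synthetase, 425 and 191 CPM (1.15). Fasn, fatty acid synthase, was on the same side within 2-fold, at 214 against 120 CPM (log2 0.83, 0.66 to 1.00). Scd1, stearoyl-CoA desaturase, was on the other side, at 828 against 1474 CPM (log2 -0.83), and the regulator genes Srebf1 (-0.37) and Mlxipl (0.08) stayed within 2-fold. Of the 5 genes past 2-fold, 3 were also higher in H than in C, at any size. Over all genes compared in adipocyte-like nuclei, 19.5% were higher in H than in C by 2-fold or more and 7.53% lower.

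Most genes in the other lists of adipocyte function stayed within 2-fold. Of 14 genes of fatty acid oxidation none was past 2-fold (median -0.06). Of 11 genes of triglyceride synthesis 1 was, Gpd1, the glycerol-3-phosphate dehydrogenase (139 against 65.5 CPM, log2 1.09), and Dgat2, Pck1 and Acsl1 had log2 differences of 0.28, -0.11 and -0.16. Of 11 genes of lipolysis and droplet proteins 1 was lower, G0s2, an inhibitor of adipose triglyceride lipase (59.7 against 135 CPM, log2 -1.18), while the lipase genes Pnpla2 (-0.53) and Lipe (-0.21) were not past 2-fold. Of 10 genes of fatty acid uptake 1 was lower, Fabp4, the adipocyte fatty acid-binding protein, at 808 CPM in HC and 1621 to 2036 CPM in the chow libraries (log2 -1.33). Of 7 adipokine genes 1 was lower, Cfd, which encodes adipsin, at 226 against 477 CPM. CCC had 144 CPM of Cfd, so chow libraries spanned the level in HC. Leptin and adiponectin stayed within 2-fold, Lep at 333 against 298 CPM (log2 0.16) and Adipoq at 163 against 293 CPM (-0.84).

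Signalling and transcription factor genes gave single large differences. Of 13 genes of insulin signalling 1 was higher, Grb14, an adaptor that inhibits the insulin receptor, at 274 CPM in HC, 73.6 CPM in CC, 59.8 CPM in C, 93.9 CPM in CCC, 355 CPM in H and 413 CPM in HHC. HC, H and HHC were thus all above the 3 chow libraries for Grb14. The insulin receptor gene Insr (-0.32), Irs1 (0.28), Akt2 (0.29) and Slc2a4, the insulin-regulated glucose transporter (-0.45), stayed within 2-fold. Of 15 adipogenic transcription factors 3 were lower, all of the C/EBP family: Cebpa (18.2 against 39.6 CPM), Cebpb (5.67 against 38.1 CPM) and Cebpd (3.88 against 11.2 CPM). These 3 lay below the chow libraries, and Pparg, their partner in adipogenesis, had 4115 and 4560 CPM (log2 -0.15). Cebpb was lower in HC by 2-fold or more in all 6 compared classes (log2 -4.21 to -1.99), so its difference was not particular to adipocyte-like nuclei. Of 6 genes of the growth hormone axis, Igf1 (488 against 179 CPM) and Cish (37.6 against 1.96 CPM), targets of STAT5, were higher and Bcl6 (204 against 486 CPM), a repressor of such targets, was lower. For Igf1 and Cish the youngest chow library, C, stood above HC, at 1943 CPM for Igf1, so neither was outside the chow range.

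Of 12 genes of amine and xenobiotic oxidation 2 were lower, Adh1 and Cyp4b1, and 11 of the 12 were on the lower side, with a median of -0.60. Aldh1a1, a retinaldehyde dehydrogenase, had 1358 and 2142 CPM (log2 -0.66), and Ces1d, a carboxylesterase of lipid stores, 422 and 668 CPM (-0.66). Of 13 matrix and stress genes of obese adipocytes, 3 were higher and 1 lower, with a median of 0.66. Ctsd, cathepsin D, had 184 and 48.4 CPM (log2 1.92), Col6a3, a collagen VI chain, 83.9 and 34.5 CPM (1.28), and Runx1, a transcription factor, had 134 CPM in HC (1.01 above CC on the log2 scale). All 3 were above the chow libraries. Lox, lysyl oxidase, was lower, at 1.19 against 11.7 CPM. Other nuclei of HC had 914 CPM of Runx1, 364 CPM of Ctsd and 141 CPM of Col6a3, more than the adipocyte-like nuclei, and the part of free RNA from those nuclei was not tested.

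**Figure D4:**
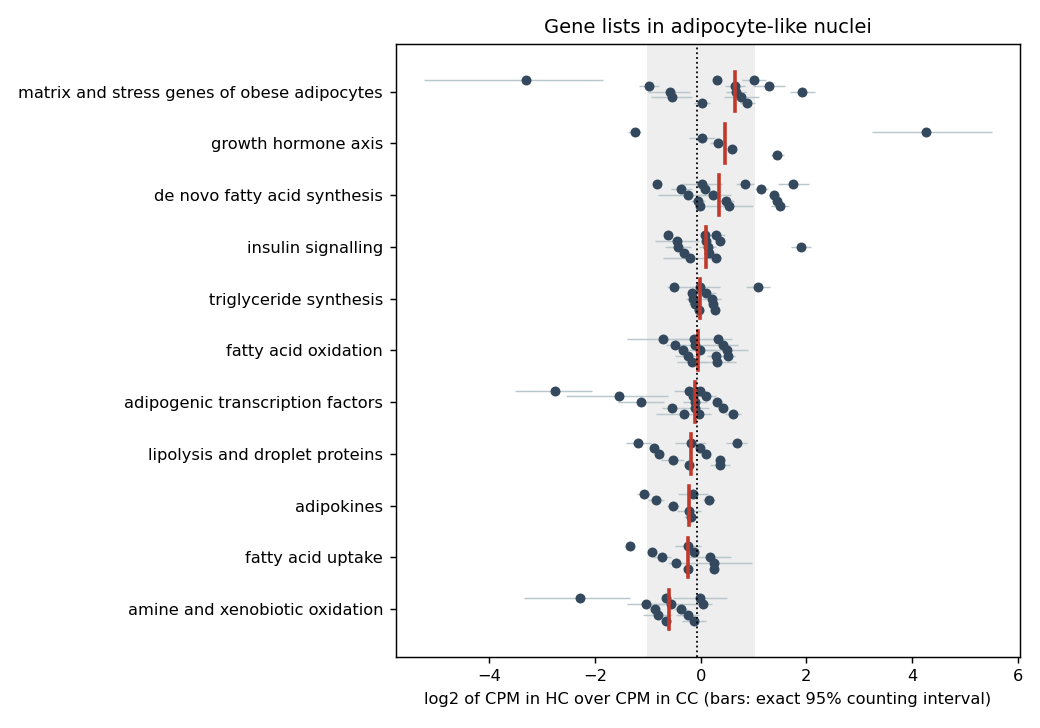
Each point is a gene of a list in adipocyte-like nuclei (x axis, log2 ratio of CPM in HC over CC, bars as exact 95% counting intervals, red lines as list medians, dotted line as the median of all compared genes). Most lists centre inside the grey band of differences under 2-fold, with medians from -0.60 for amine and xenobiotic oxidation to 0.66 for matrix and stress genes, and single genes lie outside it.

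The rule for named genes gave 10 higher genes in adipocyte-like nuclei, Cish, Prdm16, Ryr2, Grb14, Pgm3, Ccdc3, Gnal, Elovl6, Acaca and Tspan18. Of these, 8 were above all chow libraries and 7 were higher in H than in C, at any size. Prdm16, a transcription factor of beige and brown adipocytes (chr4:154316125-154636873), had 238 CPM in HC, 34.5 CPM in CC, 15.3 CPM in C, 58.6 CPM in CCC, 96.2 CPM in H and 223 CPM in HHC. The 2 weight-loss libraries were therefore above H, and H above chow. Ccdc3, a secreted protein of adipocytes and endothelium, had 215 CPM in HC, 28.1 to 83.4 CPM in chow, 131 CPM in H and 176 CPM in HHC. Tspan18, a tetraspanin, had 329 CPM in HC, 28.5 to 113 CPM in chow and 212 CPM in H. Gnal, the G-protein alpha subunit of the olfactory type, had 56.5 CPM in HC, 5.13 to 23.8 CPM in chow, 160 CPM in H and 177 CPM in HHC. Ryr2, the cardiac calcium release channel, had 144 CPM in HC and 31.0 CPM in CC, but 140 CPM in CCC, so HC and CCC did not separate.

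The lower genes included Fgf14, Peg3, Scamp3, Cyp2d22, Syt2, Mageb18, Ncam2 and Adamts12. Peg3, an imprinted zinc finger gene, had 62.7 CPM in HC and 119 to 224 CPM in chow, with 145 CPM in H. Syt2, a synaptotagmin of exocytosis, had 41.5 CPM in HC, 74.3 to 138 CPM in chow, 29.5 CPM in H and 24.1 CPM in HHC. Ncam2, a neural cell adhesion molecule, had 13.1 CPM in HC and 46.0 CPM in CC, but 4.83 CPM in CCC, so it was not outside the chow range.

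In progenitor-like nuclei 453 of 10177 compared genes (4.45%) were higher in HC by 2-fold or more and 671 (6.59%) were lower. CCC against CC gave 200 higher (2.25%) and 485 lower (5.46%) of 8881. Of the genes past 2-fold in HC against CC, 379 higher genes lay above all chow libraries and 405 lower genes below all of them. After library correction the class was made mainly of 3 clusters in both libraries, with cluster 0 holding 74.8% of it in HC and 61.7% in CC, cluster 6, led by Pi16 and Sema3e, 14.0% and 23.7%, and cluster 11 10.2% and 14.4%. With HC and CC clustered alone it split by library instead, into a cluster of 1226 nuclei of HC and 17 of CC, one of 93 and 863, and one of 41 and 0.

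Matrix genes were mostly within 2-fold. Of 18 collagen chains, Col8a1 was higher (141 CPM in HC, 52.9 CPM in CC, 59.2 CPM in C, 128 CPM in CCC and 691 CPM in H) and Col6a1 lower (44.7 against 91.4 CPM), with 13 of the 18 on the higher side and a median of 0.41 against 0.02 over all compared genes. Col3a1, a fibrillar collagen, had 532 and 365 CPM (log2 0.54), with 634 CPM in CCC and 3242 CPM in H. HC was therefore at chow level and far below H. Of 19 matrix glycoprotein and crosslinking genes, Postn, periostin, was higher (58.6 against 24.1 CPM, with 759 CPM in H) and Lox lower (6.82 against 15.5 CPM), with a median of 0.13. Of 14 genes of the TGF-beta and BMP pathway, Ltbp2 was higher (15.6 against 3.50 CPM) and Bmp4 lower (10.3 against 21.8 CPM).

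Genes that mark progenitor states were lower more often than higher. Of 10 markers of fibro-inflammatory progenitors, 4 were lower, Dpp4, Pi16, Sema3c and Ly6c1, with a median of -0.70, and all 4 lay below the chow libraries. Ly6c1 was lower by 2-fold or more in all 6 compared classes, so its difference was not particular to progenitor-like nuclei. Pi16, a marker of early, multipotent progenitors, had 52.5 CPM in HC, 129 CPM in CC, 346 CPM in C, 247 CPM in CCC and 317 CPM in H. Dpp4, a dipeptidase of the same cells, had 69.7 CPM in HC, 161 to 203 CPM in chow and 174 CPM in H. In the largest cluster alone the median of this list was -0.32. Of 11 genes of committed progenitors, Fabp4 (456 against 2064 CPM) and G0s2 (18.2 against 94.1 CPM) were lower and Apod was higher (22.5 against 9.72 CPM), with a median of -0.58. C and CCC had 335 and 610 CPM of Fabp4, so CC stood apart from the other chow libraries and HC did not. The summed adipocyte markers in these nuclei, given above, differed in the same direction, and their part in the values of Fabp4, G0s2, Pparg (log2 -0.95) and Cd36 (-0.83) was not tested.

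Secreted factors and adhesion genes of progenitors were mixed. Of 15 growth factor and receptor genes, Fgf7 (190 against 85.9 CPM) and Hgf (53.3 against 22.9 CPM), both growth factors of epithelia, were higher and above all chow libraries, at 183 and 84.5 CPM in H. Vegfa (40.9 against 149 CPM), Igfbp4 (77.5 against 157 CPM) and Igfbp6 (17.7 against 36.5 CPM) were lower and below all chow libraries. Pdgfra and Pdgfrb, receptors that define mesenchymal cells, were within 2-fold (log2 0.55 and 0.71). Of 8 cytokine and inflammatory genes, Vcam1 (67.4 against 28.0 CPM) and Has1 (9.84 against 4.66 CPM) were higher, and C had more Has1, 26.1 CPM, than HC. Of 8 complement genes 1 was lower, Cfd (222 against 647 CPM), and C7, a terminal complement component, had 2780 and 1972 CPM (log2 0.50).

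**Figure D5:**
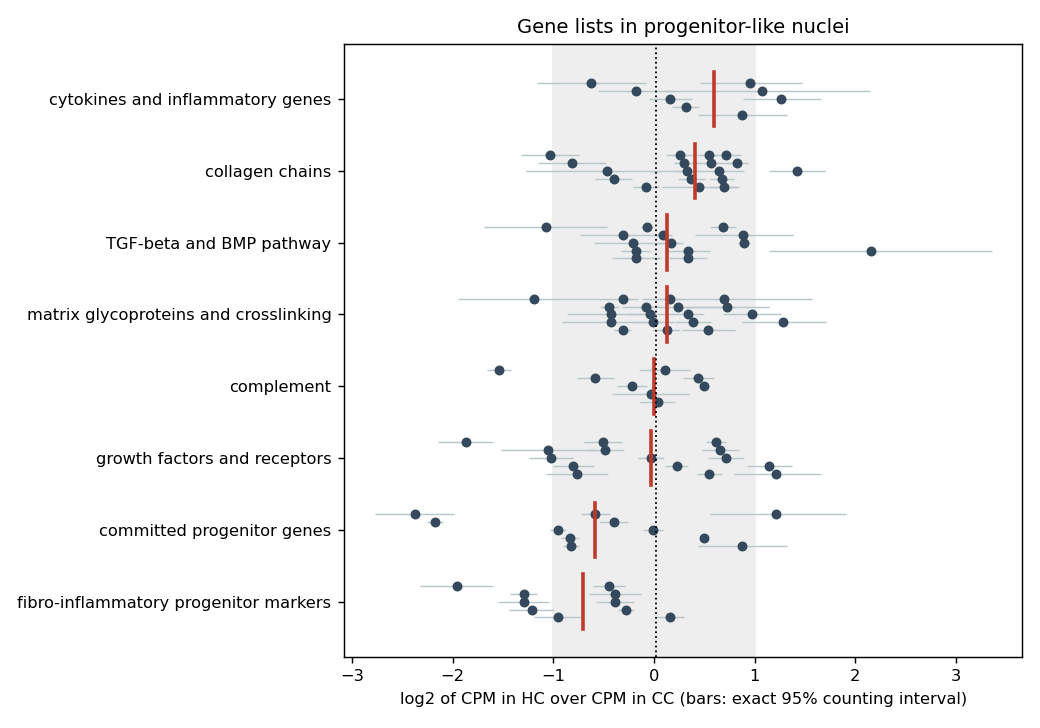
Each point is a gene of a list in progenitor-like nuclei (x axis, log2 ratio of CPM in HC over CC, bars as exact 95% counting intervals, red lines as list medians, dotted line as the median of all compared genes). The lists of fibro-inflammatory markers (median -0.70) and committed progenitor genes (-0.58) lie to the left, cytokines (0.59) and collagen chains (0.41) to the right.

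The 10 higher named genes of progenitor-like nuclei fell into a set carried by the main cluster and a set carried by cluster 11. Lrfn2, Myo16, Fbln7, Nfasc, Rnf182 and Olfm2 were higher in HC mostly through cluster 0, and all 6 were higher in H than in C. Lrfn2, a synaptic adhesion protein, had 66.1 CPM in HC, 4.66 CPM in CC, 10.9 CPM in C, 6.94 CPM in CCC, 44.3 CPM in H and 45.3 CPM in HHC. Nfasc, neurofascin, had 53.3 CPM in HC, 6.22 CPM in CC, 10.9 and 13.3 CPM in C and CCC, 49.3 CPM in H and 69.4 CPM in HHC. Fbln7, a fibulin of the matrix, had 21.7 CPM in HC, 1.55 to 4.42 CPM in chow, 26.9 CPM in H and 21.3 CPM in HHC. For these 3 genes HC, H and HHC stood together, above every chow library.

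Lgr5, Galntl6, Grm7 and Rorb were higher through cluster 11. Lgr5, an R-spondin receptor of stem cells (chr10:115450311-115587780), had 441 UMIs in HC, 419 of them in the 137 nuclei of cluster 11, and 1 UMI in CC, none of it in the 123 nuclei of cluster 11 (log2 8.16, 5.68 to 13.47). Lgr5 was lower in the other libraries, with 29.5 CPM in C, 9.47 CPM in CCC and none in H or HHC, against 111 CPM in HC. CC, at 0.389 CPM, was also below C. In the finer first clustering Lgr5 was a leading gene of the Rbfox3, Ryr3 and Actg2 cluster, which held 225 nuclei of HC and 187 of C. Galntl6, a mucin-type glycosyltransferase gene, had 116 UMIs in HC, 106 of them in cluster 11, and none in CC, at least 4.65 higher on the log2 scale. Grm7, a metabotropic glutamate receptor, had 124 and 4 UMIs, and Rorb, a nuclear receptor, 268 and 18 UMIs. C stood within 2-fold of HC for Galntl6, at 16.8 against 29.3 CPM, and for Grm7, at 19.1 against 31.3 CPM. For Rorb C had 19.8 CPM and HC 67.6 CPM. In the lower direction, Ptch1, the Hedgehog receptor, had 44.9 and 151 CPM, and in cluster 11 it had 128 and 587 CPM. Col4a3, a basement membrane collagen chain, had 13.4 CPM in HC and 82.4 CPM in CC, and in cluster 11 66.2 and 361 CPM. With HC and CC clustered alone, a progenitor-like cluster led by Lgr5, Rorb and Galntl6 held 41 nuclei of HC and 0 of CC, so these genes marked nuclei that were counted in HC alone in that setting.

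The other lower genes were Pld5, Ankdd1b, Cyp26b1, Grm3, Sema3e, Ly6c1, Maged1 and Atf4, and the rule's 10 genes were all below the chow libraries. Sema3e, a guidance factor that acts through plexin D1, had 39.9 CPM in HC and 148 to 448 CPM in chow, with 104 CPM in H and 47.9 CPM in HHC. In both libraries most of its UMIs lay in cluster 6, 131 in HC and 282 in CC. Pld5, a phospholipase D family gene, had 106 of its UMIs in CC in that cluster. Over the class it had 4.80 CPM in HC and 45.1 to 63.8 CPM in chow, with 5.31 CPM in H. Atf4, a transcription factor of the integrated stress response, had 18.2 CPM in HC, 50.5 to 66.5 CPM in chow and 64.1 CPM in H. Atf4, Maged1 and Ly6c1 were lower outside progenitor-like nuclei as well. The other nuclei of HC and CC had 28.4 and 62.8 CPM of Atf4, 16.4 and 44.3 CPM of Maged1 and 24.8 and 80.7 CPM of Ly6c1.

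Genes past 2-fold in HC against CC were set beside those past 2-fold in H against C, a comparison that shares no library with it. In macrophage-like nuclei, 8982 genes were compared in both, and 1527 (17%) were higher and 1123 (12.5%) lower in H. Of the 884 genes higher in HC, 641 were also higher in H, which is 72.5% of the HC genes and 42.0% of the H genes. Of the 909 lower in HC, 558 were also lower in H, or 61.4% and 49.7%. In progenitor-like nuclei, H against C gave 1193 higher (12%) and 564 lower genes (5.65%) of 9974, and 228 genes were shared as higher, 55.7% of the 409 of HC and 19.1% of those of H. There 172 were shared as lower, 28.7% of the 599 of HC and 30.5% of those of H.

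In adipocyte-like nuclei, H against C gave 1858 higher (19.5%) and 716 lower genes (7.53%) of 9511. The 146 shared higher genes were 60.1% of the 243 of HC but 7.86% of those of H, and the 89 shared lower genes were 20.4% of the 437 of HC and 12.4% of those of H. H had 172 adipocyte-like nuclei and 5044 macrophage-like nuclei.

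Mesothelial-like nuclei, 322 in each library, had 161 of 5839 genes higher (2.76%) and 288 lower (4.93%). Their own markers were near even, with 1 of 10 past 2-fold, Msln, mesothelin (36.1 against 84.8 CPM), and a median of -0.09. None of 7 matrix and inflammatory genes was past 2-fold. Col3a1 had 1491 and 1042 CPM (log2 0.52) and the cytokine gene Il33 169 and 159 CPM (0.09). Of the rule's 5 higher genes, Akr1b7, an aldo-keto reductase first described in the vas deferens, had 842 UMIs in HC and 0 in CC. With a floor of 3 counts in CC that is 8.43 higher on the log2 scale. Crisp1, a sperm-coating protein of the epididymis, had 252 and 0 UMIs, and Spink8, a protease inhibitor, 206 and 0 UMIs. Cd52, a small glycosylated surface antigen, had 182 and 1 UMIs (log2 7.81, 5.31 to 13.12) and Tmem267 237 and 5 UMIs. Epithelial markers summed to 869 CPM in mesothelial-like nuclei of HC and 534 CPM in those of CC, and other nuclei of HC had 419 CPM of Akr1b7 and 123 CPM of Crisp1. Their part in these genes was not tested. The 5 lower genes were Cebpb (5.35 against 98.9 CPM), Txnip (81.6 against 372 CPM), Rnase4 (30.8 against 143 CPM), Crip2 and Sult1a1, all below the chow libraries. Txnip, an inhibitor of thioredoxin, had 323 to 372 CPM in chow and 257 CPM in H.

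Endothelial-like nuclei, 369 in HC and 189 in CC, had 289 of 6262 genes higher (4.62%) and 207 lower (3.31%). With no upper limit on genes 301 were higher and 378 lower, so which direction held more genes depended on that limit. All 12 genes of capillary fatty acid handling were on the lower side, with a median of -0.85 against 0.04 over all compared genes, and 3 were past 2-fold: Fabp4 (3708 against 7929 CPM), Car4, a carbonic anhydrase of capillaries (80.9 against 190 CPM), and Aqp7, a glycerol channel (85.3 against 181 CPM). Gpihbp1, which carries lipoprotein lipase across the capillary, had 127 and 250 CPM (log2 -0.98). The chow libraries did not bound these values. C had 1270 CPM of Fabp4, 57.8 CPM of Car4 and 84.9 CPM of Gpihbp1, below HC, and CC was the highest of the 4 for Fabp4 and Car4. Adipocyte markers in these nuclei summed to 5572 CPM in HC and 8703 CPM in CC. Of 7 adhesion and activation genes none was past 2-fold, with 6 on the higher side and a median of 0.84, which was 0.18 in the largest endothelial-like cluster alone. Vcam1 had 48.7 and 24.9 CPM (log2 0.97, 0.17 to 1.85), and C had 268 CPM. None of 12 genes of VEGF, angiopoietin and Notch signalling was past 2-fold, and Kdr, the main VEGF receptor, had 213 and 364 CPM (log2 -0.77).

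Smooth muscle genes separated HC from CC in whole-library levels as in nuclei. Myh11, smooth muscle myosin, stood at 631 CPM in HC and 33.4 CPM in CC over all kept nuclei, with 155 CPM in C, 42.0 CPM in CCC and 7.02 CPM in H. Myocd, a coactivator of smooth muscle genes, had 75.8 and 2.76 CPM, and Acta2, smooth muscle actin, 108 and 24.7 CPM. Rgs5, a pericyte gene, went the other way, at 48.8 CPM in HC and 127 CPM in CC. These sums include the low-count nuclei that were set apart, and Rgs5 led such a cluster of 28 nuclei of HC and 385 of CC. The part of that cluster in the Rgs5 levels was not tested. Rgs5 and Myh11 thus moved apart within 1 marker list, whose sum was 1472 and 546 CPM (log2 1.43). With 34 nuclei in CC, genes within this class were not compared.

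Epithelial-like nuclei differed in which clusters they came from. They were 5.34% of HC and 18.4% of CC (-13.1 points, -14.5 to -11.7), and 11.9% and 33.1% of C and CCC. Epithelial markers summed over the whole library differed less, at 985 CPM in HC and 1125 CPM in CC (log2 -0.19), and HC lay within the 980.0 to 1382 CPM of the chow libraries. In CC, 81.4% of them lay in cluster 8, which held 2.56% of those of HC. In HC, 60.4% lay in cluster 19, which held 3.15% of those of CC. Another 27.5% lay in cluster 26, which held 0 of the 667 of CC (exact 95% interval up to 0.552%). The genes of these classes therefore compare different epithelial clusters: 828 of 8125 were higher (10.2%) and 1698 lower (20.9%). The share of lower genes was the largest of any class. The share of higher genes was close to the 9.98% of macrophage-like nuclei, which had more by count, 910. With TMM scaling 922 of 8125 were higher in epithelial-like and 1073 of 9117 in macrophage-like nuclei, so the order of those 2 shares depended on the scaling. The higher genes Akr1b7, Dlgap1, Slc14a2, Atp10b and Luzp2 were far above CC, Akr1b7 with 3808 against 6.33 CPM and Dlgap1, a scaffold protein of synapses, with 4997 against 15.8 CPM, and C had 803 and 897 CPM. The lower genes Dcdc2a, Greb1, Adcy8, Dnah11 and Adgrg2 were at 1.04 to 12.5 CPM in HC. Adgrg2, an adhesion receptor of the efferent ducts and proximal epididymis, had 12.5 CPM in HC and 1865 CPM in CC, and Dcdc2a, a doublecortin domain gene, 2.08 and 2189 CPM, with 1940 CPM in C, 2067 CPM in CCC and 2330 CPM in H. HC lay far below the other 4 libraries for Dcdc2a. Over the whole library the epithelial markers also split, with Pax2, a transcription factor of the duct, at 89.7 CPM in HC and 28.4 CPM in CC, and Krt8, a simple epithelial keratin, at 2.91 and 12.7 CPM.

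A small group of genes differed in the same direction in all 6 compared classes. Of 5048 genes compared in all 6, 27 (0.535%) were higher in HC by 2-fold or more in each and 22 (0.436%) lower in each. They were chosen by that pattern and are given as a description. The higher set held genes of macrophages (Gpnmb, Mmp12, Atp6v0d2, Lgals3, Ctsd, Ctss, Lipa, Lyz2, Cd84, Lcp1, Myo1f and Cd44), of the epididymis (Akr1b7 and Crisp1) and of smooth muscle (Myh11). Over the whole library Cd44, a hyaluronan receptor, had 300 CPM in HC and 48.6 CPM in CC, and Rbfox3, a leading gene of the smooth muscle or pericyte-like cluster, 398 and 4.99 CPM. The lower set held genes of adipocytes (Fabp4 and G0s2), of epithelium (Adcy8 and Dcdc2a) and of pericytes and endothelium (Rgs5, Aqp1 and Ly6c1), with B2m, the MHC class I light chain, and the transcription factor genes Cebpb and Klf2. Fabp4 had 850 CPM in HC and 2729 CPM in CC over the whole library, and Cebpb 6.61 and 53.9 CPM. Cebpb was at 57.8 and 49.0 CPM in C and CCC and at 121 CPM in H, so HC stood alone below them.

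For these shared genes the markers of their source classes were present in the other classes as well. Macrophage markers summed to 1489 CPM in progenitor-like nuclei of HC and 1036 CPM in those of CC, to 1727 and 1016 CPM in mesothelial-like nuclei, and to 2035 and 1248 CPM in endothelial-like nuclei, but to 959 and 1090 CPM in adipocyte-like nuclei. The part of free RNA in a difference seen in every class was not tested.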

How the data were processed

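Nuclei of epididymal AT were profiled by 10x snRNA-seq (3' v3.1 chemistry) in 9 libraries of 5 pooled mice. The authors deposited filtered matrices of UMI counts per gene and barcode, not normalised, and the submitters' processing notes name Cell Ranger 6.1.2, Seurat 4.1.0 and the build mm10. By the study's methods, free RNA was estimated and no correction was applied.

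Barcodes with 500 to 3000 genes and at most 40000 UMIs were kept, and doublets were removed per library with Scrublet (scanpy 1.11.5), at the rate expected from nuclei number where the automatic threshold had called under 0.5%, which called 5.12% of all barcodes of HC and 4.14% of those of CC. Total UMIs were 31921464 in HC and 31387832 in CC. All 9 libraries were clustered together with 2000 variable genes, 30 principal components, a Harmony-type correction for library, 20 neighbours and Leiden clustering at resolution 0.5 (leidenalg 0.10.2), after low-count mixed clusters had been set apart. Clusters were named from at least 3 markers.

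UMIs were summed per class and library and scaled to CPM without Malat1 and mitochondrial genes. Genes with at least 50 UMIs over HC and CC were compared, with exact conditional 95% intervals for ratios, Clopper-Pearson intervals for shares and Newcombe intervals for their differences (scipy 1.17.1). These cover counting error only. A ratio against 0 UMIs was set with a floor of 3 counts in that library, which is not an interval limit. Named genes were protein-coding genes past 2-fold whose level in the higher library was at least that of its other nuclei, ranked by the interval bound nearest 0, the first 10 each way in adipocyte-, macrophage- and progenitor-like nuclei and the first 5 in other classes with at least 200 nuclei in both libraries. Members of gene lists, markers and genes leading a cluster were also named, and genes past 2-fold in all 6 classes were chosen after their values were seen. Results for a few genes that met these rules are not reported here. The comparison and the gene lists were chosen with earlier results of these data known. Coordinates are from GENCODE annotation of mm10 (GRCm38). Scripts were tested on simulated data. Alternatives were another resolution, no library correction, HC and CC clustered alone, low-count clusters or doublets kept, no upper limit on genes, other UMI minimums, TMM scaling (edgeR 4.0.16), subtraction of free RNA and, chosen after seeing the data, single clusters or kinds of a class.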

Additional observations from a re-analysis of the deposited data

Results flagged for a closer look

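The 80 named genes were also looked up in HHC against CCC, the weight-loss comparison after 25 weeks of HFD, and 4 lay past 2-fold in the opposite direction there. The difference between the comparisons was not tested, since each has 1 library a side. Lgr5 in progenitor-like nuclei, higher in HC than in CC, had 0 UMIs in HHC and 15 in CCC. With a floor of 3 counts in HHC that is 23.0-fold lower, or -4.52 on the log2 scale. Its counting interval reached up to -4.05. Akr1b7 in epithelial-like nuclei had 0 UMIs in HHC and 45 in CCC, with the same floor 2.28-fold lower, or -1.19 on the log2 scale. Its counting interval reached up to -0.83, which is within 2-fold. In mesothelial-like nuclei Crisp1 had 9 and 15 UMIs, a log2 ratio of -1.72 (-3.10 to -0.44), and Spink8 10 and 15 UMIs, a log2 ratio of -1.57 (-2.89 to -0.32).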

How the results depend on the processing

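No paired analysis was possible because each group has 1 library. Without library correction, the share differences (HC minus CC, percentage points) were -5.39 for adipocyte-like, 7.80 for macrophage-like, 1.51 for progenitor-like (interval including 0), 0.160 for LAM-like and -0.511 for PVM-like nuclei. The difference for unnamed kinds reversed to 0.351. With low-count clusters kept they were -10.3 (adipocyte-like), -11.6 (epithelial-like) and 19.7 (LAM-like), and those of the unnamed class and unnamed kinds reversed to -0.00839 and 4.55. With no upper limit on genes they were -10.3 (adipocyte-like), 12.7 (macrophage-like), 0.890 (endothelial-like, interval including 0), 4.29 (smooth muscle or pericyte-like), -10.7 (epithelial-like) and 23.3 (LAM-like). With HC and CC clustered alone they were -4.75 (adipocyte-like), 4.95 (endothelial-like), 3.73 (smooth muscle or pericyte-like), 34.8 (LAM-like), -72.3 (PVM-like) and 44.3 (NPVM-like). Smooth muscle or pericyte-like nuclei differed by 5.83 and LAM-like nuclei by 24.9 at resolution 1, and the former by 6.14 with doublets kept. With at least 20 UMIs the higher and lower genes were 528 and 1006 in adipocyte-like, 813 and 1187 in progenitor-like, 419 and 741 in mesothelial-like and 1251 and 2600 in epithelial-like nuclei, with 1647 lower in macrophage-like nuclei. With at least 200 UMIs they were 112 and 98, 131 and 228, 34 and 77, and 361 and 627 in the same order, and 475 and 370 in macrophage-like nuclei. With free RNA subtracted they were 1424 and 1517 in macrophage-like and 394 and 701 in mesothelial-like nuclei, with 867 higher in progenitor-like and 2584 lower in epithelial-like nuclei. In endothelial-like nuclei the counts were 788 and 525 with free RNA subtracted, 631 and 537 with at least 20 UMIs, 58 and 53 with at least 200 UMIs, and 301 and 378 with no upper limit on genes. The share subtracted met its upper limit of 50% in progenitor-, mesothelial- and epithelial-like nuclei of CC and endothelial-like nuclei of both. In PVM-like and NPVM-like nuclei alone 382 genes were higher and 395 lower, and the medians of the LAM programme and PVM receptors were 2.07 and -1.06. TMM scaling shifted all log2 ratios by 0.12 in macrophage-like nuclei, where 1073 genes were then higher and 811 lower, and by 0.10 in epithelial-like nuclei. Of 680 log2 ratios of named genes under alternatives, 592 stayed within the counting interval of the value reported, 88 moved out of it and none changed direction. Since these genes were picked from the same data for large differences, an unchanged direction says little. The causes were not tested. With 1 pooled library a side, animals, library and diet cannot be told apart.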
